A study of Mus musculus with 6 samples.

Results

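ARF is a small, basic protein of the nucleolus made from the Cdkn2a locus, and the genes described here encode 9 proteins reported to bind it or to act with it: Npm1, Ncl, Senp3, Ubtf, Ttf1, Ddx5, Drosha, Huwe1 and Trip12. They were chosen by name, as proteins reported to bind ARF or act with it, by a rule that used no measured value, although earlier results of these data were known at the time, and all 9 were found among the 54752 genes of the count table. RNA-seq was made from 6 libraries of mouse embryonic fibroblasts (MEFs), fibroblasts grown out of dissected embryos, in a line labelled as deleted for p53. Cells of 3 libraries carried a lentiviral negative control shRNA (shNT, genotype labelled WT) and cells of 3 carried a lentiviral shRNA against p19ARF (shARF, genotype labelled ARF knockdown). The labels call the 3 libraries of a group biological replicates and add the tag neo to all 6, but do not say whether the infected cells were clones or pools or came from separate infections, so the spread behind each p-value may be technical. Every library of both groups lacks p53 by its label, so no comparison with p53-intact cells is made.

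ARF is best known for holding the ubiquitin ligase Mdm2 away from p53. It also acts without p53, largely in the nucleolus, where it slows the synthesis and processing of ribosomal RNA (rRNA) through the proteins it meets there. NPM1 (nucleophosmin) tethers ARF in the nucleolus and shields it from breakdown, NCL (nucleolin) is an abundant rRNA-binding partner, and SENP3 removes SUMO from NPM1. UBTF starts transcription of rRNA genes by RNA polymerase I (Pol I) and TTF1 ends it, DDX5 and DROSHA process structured RNA, and HUWE1 and TRIP12 are ubiquitin ligases, the first inhibited by ARF and the second active on ARF itself. Most of these links are between proteins, and the data are transcript levels only.

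The promoters of the members with the largest rise and the largest fall are shown first, because the results turn on these opposite changes. Each run covers 250 bases before the RefSeq start (GRCm38.p6), read 5′ to 3′ on the strand of the gene. Capitals mark 4 searched motifs on either strand: GGGCGG (GC box, of SP1 and KLF factors), CCAAT (of NF-Y), CCGGAAG (of ETS factors) and CACGTG (E-box, of MYC and related factors). The Ncl window lies at chr1:86359456-86359705 on the minus strand and the Ttf1 window at chr2:29060013-29060262 on the plus strand.
Ncl: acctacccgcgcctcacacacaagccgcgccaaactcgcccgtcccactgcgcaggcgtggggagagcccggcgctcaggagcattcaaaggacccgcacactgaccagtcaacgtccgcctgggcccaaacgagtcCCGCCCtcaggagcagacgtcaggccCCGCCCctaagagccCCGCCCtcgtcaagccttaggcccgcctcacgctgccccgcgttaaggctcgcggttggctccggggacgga
Ttf1: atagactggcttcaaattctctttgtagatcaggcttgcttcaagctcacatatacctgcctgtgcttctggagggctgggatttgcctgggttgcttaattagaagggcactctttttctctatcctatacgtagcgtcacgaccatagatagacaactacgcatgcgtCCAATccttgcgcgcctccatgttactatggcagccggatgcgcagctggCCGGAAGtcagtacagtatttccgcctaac
The Ncl window held 3 GC boxes and 27 CG pairs, and the Ttf1 window held a CCAAT box, an ETS motif and 11 CG pairs. Both CG numbers were above the median of 6 over all windows of the same length. A RefSeq window was matched for 8 of the 9 members, all but Npm1, so the motifs of Npm1 are not known here. For each, the window nearest the annotated gene start was read. Among these 8, GGGCGG was found in 3 (Huwe1, Ncl, Ubtf), CCAAT in 4 (Ddx5, Drosha, Senp3, Ttf1), CCGGAAG in 2 (Drosha, Ttf1) and CACGTG in 0. Windows of other RefSeq starts of Ddx5, Senp3 and Ubtf were not counted, and some held other motifs. A Ddx5 window 278 bases from the annotated start held CACGTG and CCGGAAG, and a Senp3 window 114 bases away held GGGCGG. The windows read for Huwe1 and Trip12 lay 2475 and 1212 bases from the annotated start. Of all 32851 windows of the same length, 32.7% held GGGCGG, 33.8% CCAAT, 6.91% CCGGAAG and 6.02% CACGTG. These are matches of letters only.

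Cdkn2a, the target of the hairpin, was lower in shARF. It was at 231, 217 and 222 CPM (counts scaled to 1 M per library, scaled by TMM factors, which correct for library composition) in shNT and at 95.6, 103 and 106 CPM in shARF, counted over ARF and p16INK4a transcripts together. The libraries held 40.3 to 47.0 M counts. Fibroblast markers were all detected (10 of 10 tested) and summed to 21000 to 22600 CPM in shNT and 24200 to 24500 CPM in shARF, although Pdgfra (502 ± 5.64 and 91.4 ± 2.23 CPM, SD, n = 3 each) and Dcn (198 ± 5 and 45.4 ± 3.55 CPM) fell. Epithelial markers (5 of 6 tested) summed to 36.7 to 39.6 and 32.7 to 33.9 CPM, neural markers (2 of 5) to 70.4 to 74.0 and 93.6 to 102 CPM, mesothelial markers (4 of 4) to 82.4 to 85.7 and 83.8 to 85.5 CPM, endothelial markers (2 of 5) to 2.4 to 2.99 and 2.8 to 3.62 CPM, leukocyte markers (2 of 6) to 6.73 to 7.47 and 1.5 to 1.99 CPM and muscle markers (1 of 4) to at most 0.626 CPM. Within the mesothelial list, Upk3b, Wt1 and Lrrn4 were at 0.0137, 0.101 and 0 CPM on average in shNT and 12, 9.54 and 8.9 CPM in shARF, while Msln fell from 84.2 to 54.4 CPM. The epithelial and endothelial sums also hide opposite changes: Krt18 fell from 12.7 to 0.15 CPM while Cdh1 rose from 2.14 to 4.8 CPM and Krt19 from 22.2 to 28 CPM, and Tek fell from 2.16 to 0.067 CPM while Kdr rose from 0.281 to 3.13 CPM. Adgre1, Cd3e, Cdh5, Myod1, Myog and Sox10 had no count in any library. Xist, the RNA of the inactive X chromosome, was at 413, 388 and 360 CPM in shNT and 40.6, 54.3 and 42.1 CPM in shARF. The part that such differences between the cultures have in the changes below was not tested, and in bulk RNA fewer cells of a type and less RNA per cell cannot be told apart.

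Of the 9 members, 3 were higher in shARF (Npm1, Ncl, Ubtf), 3 were lower (Ttf1, Trip12, Huwe1) and 3 did not pass the test (Ddx5, Senp3, Drosha), at an adjusted p under 0.05 in edgeR's quasi-likelihood test. Over all 17128 genes tested, 56.4% were called, 28.8% higher and 27.7% lower, so a count of 6 of 9 members (66.7%) lies near the background. Among the 7155 genes whose shNT mean lay within the members' range of 24.0 to 910 CPM, 68.0% were called. All members were well detected, with at least 718 counts in every library, and all passed the filter on low counts. Their changes were small: no member changed by 2-fold, and the median absolute log2 fold change was 0.15, against 0.34 over all genes tested and 0.24 over the genes in the same range of level. The median signed log2 fold change was 0.06 for the members and -0.01 for all genes tested. Groups were apart in CPM, with no overlap, for 7 members (77.8%), against 64.6% of all genes.

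**Figure D1:**
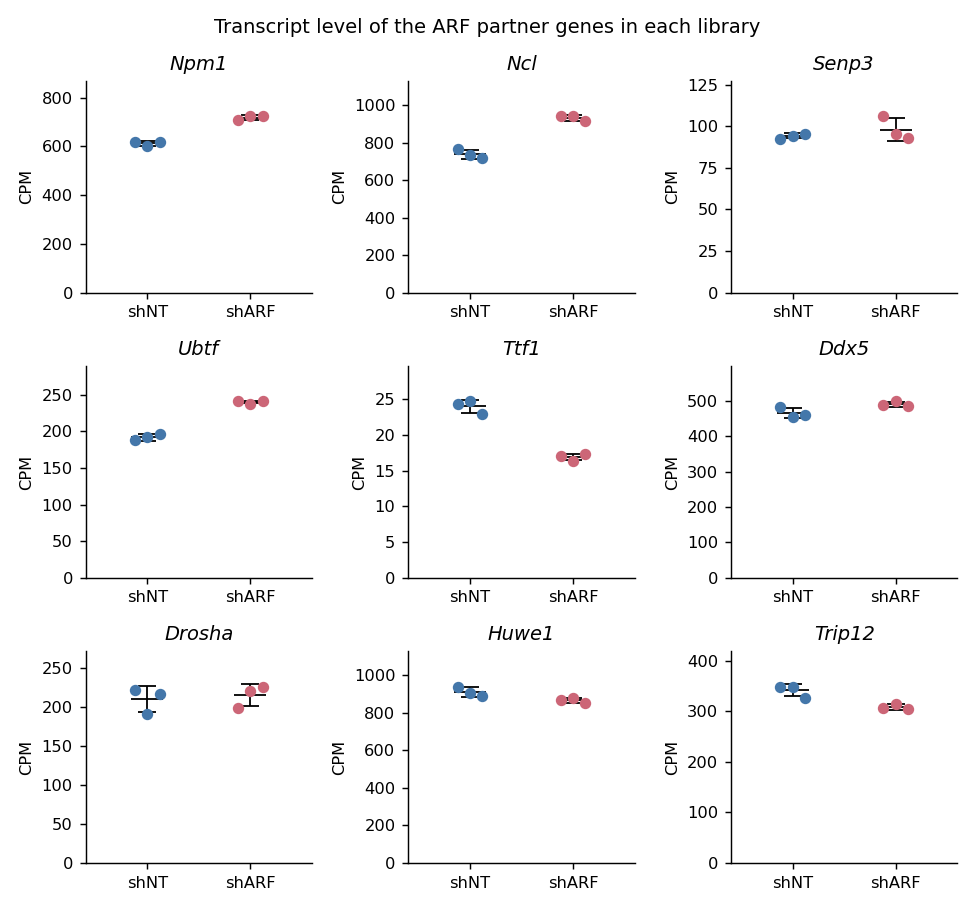
CPM of each of the 9 genes (vertical axes start at 0) in the 3 shNT and 3 shARF libraries (points), with the mean and SD (bars). Npm1, Ncl and Ubtf are higher and Ttf1 and Trip12 lower in all 3 shARF libraries, whereas the points of Senp3 and Drosha overlap between groups.

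The nucleolar scaffold proteins came from some of the most abundant transcripts measured. Npm1, the chaperone that anchors ARF, was at 619, 602 and 617 CPM in shNT and at 706, 723 and 723 CPM in shARF. The groups did not overlap, and the libraries of each group lay within a few percent of one another. Npm1 rose 1.17-fold (log2 fold change 0.23, SE 0.02, adjusted p = 8.86e-05, edgeR). Ncl, which binds rRNA precursors, was at 765, 733 and 716 CPM in shNT and at 939, 940 and 914 CPM in shARF. Every shARF library was above every shNT library, and the rise was 1.26-fold (log2 fold change 0.34, SE 0.03, adjusted p = 7.21e-05, edgeR). By mean level, not adjusted for length, Ncl lay above 99.5% and Npm1 above 99.3% of the genes tested. Per kilobase of annotated exons, Ncl lay above 96.8% and Npm1 above 99.3%. Npm3, a relative of Npm1 that binds it, was at 54.4 ± 0.938 and 57.5 ± 1.67 CPM (log2 fold change 0.08, adjusted p = 0.119, edgeR).

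Senp3, the SUMO protease that acts on NPM1, was at 92.6, 94.2 and 95.6 CPM in shNT and at 106, 95.2 and 92.7 CPM in shARF. Only shARF replicate 1 was above the shNT range, and the other shARF libraries lay inside it. The log2 fold change was 0.06 (95% confidence interval -0.07 to 0.18, adjusted p = 0.404, edgeR). Without shARF replicate 1 it was 0.00 (adjusted p = 0.994; the alternatives spanned 0.0141 to 0.994). SENP3 works in a complex that matures the large ribosomal subunit. Of the 7 genes of that list, 3 rose (42.9%) and 0 fell, against 28.8% and 27.7% of all genes tested. Mdn1, a giant AAA ATPase that remodels pre-ribosomes, rose from 206 ± 8.72 to 319 ± 3.18 CPM, Nol9, an RNA kinase, from 78.4 ± 0.673 to 112 ± 1.41 CPM and Tex10 from 54.1 ± 0.306 to 67.8 ± 1.57 CPM. Pelp1, the scaffold that SENP3 frees from SUMO, was at 93.5 ± 3.14 and 88.5 ± 4.73 CPM (log2 fold change -0.08, adjusted p = 0.207, edgeR). The Senp3 means, 94.2 and 97.8 CPM, differed by more than the SD of the shNT libraries (1.52 CPM) and by less than that of the shARF libraries (6.89 CPM).

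The rRNA transcription factors moved in opposite directions. Ubtf, which opens rRNA genes for Pol I, was at 188, 193 and 197 CPM in shNT and at 241, 238 and 241 CPM in shARF. The shARF libraries lay within 3 CPM of each other and all above shNT, a 1.25-fold rise (log2 fold change 0.32, SE 0.02, adjusted p = 4.73e-05, edgeR). Ttf1, the Pol I termination factor (not the thyroid factor Nkx2-1, which shares the alias), was at 24.4, 24.7 and 23.0 CPM in shNT and at 17.1, 16.4 and 17.3 CPM in shARF. The groups were apart, and its level in shARF was 0.703 of that in shNT (95% confidence interval 0.647 to 0.764, log2 fold change -0.51, SE 0.05, adjusted p = 1.64e-04, edgeR). This was the largest change of any member. The ratio of Ubtf to Ttf1 CPM was 7.67, 7.81 and 8.55 in shNT and 14.1, 14.5 and 13.9 in shARF, a description of the same counts.

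Around these factors, 10 of the 17 genes of Pol I and rRNA gene transcription rose (58.8%) and 2 fell (11.8%), with a median log2 fold change of 0.18. Over all genes tested, 28.8% were called higher and 27.7% lower, with a median of -0.01. Polr1b, the second largest subunit of Pol I, rose from 55.8 ± 1.52 to 79.7 ± 1.68 CPM (0.51) and Twistnb, a further Pol I subunit, from 40.7 ± 0.924 to 57.7 ± 1.29 CPM (0.50). Top1, the topoisomerase that relieves supercoils on transcribed DNA, rose from 169 ± 6.46 to 206 ± 4.11 CPM and Taf1d, of the Pol I promoter factor SL1, from 146 ± 9.54 to 183 ± 3.86 CPM. The 2 that fell, named after their values were seen, were Taf1c, also of SL1 (16.1 ± 0.323 to 11.5 ± 1.18 CPM), and Baz2a (89.2 ± 4.04 to 79.7 ± 2.26 CPM), whose product TIP5 is brought to rRNA genes by TTF1. Without shARF replicate 1, 1 gene of this list was called lower, and with fold changes centred on the genes within 5 Mb, 0 were, and Taf1d (0.06, adjusted p = 0.308, edgeR) was no longer called. Of 16 genes of the NPM family and pre-rRNA processing, 12 rose (75%) and 1 fell (6.25%), with a median of 0.41. Nop58, a core protein of box C/D snoRNPs, rose from 110 ± 1.92 to 163 ± 3.84 CPM and Rrp1b from 46.3 ± 2.14 to 69.4 ± 0.987 CPM. Ddx21 (0.68) and Bop1 (0.87) are in the same list. The member that fell was Nhp2 (-0.14), named after its value was seen.

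**Figure D2:**
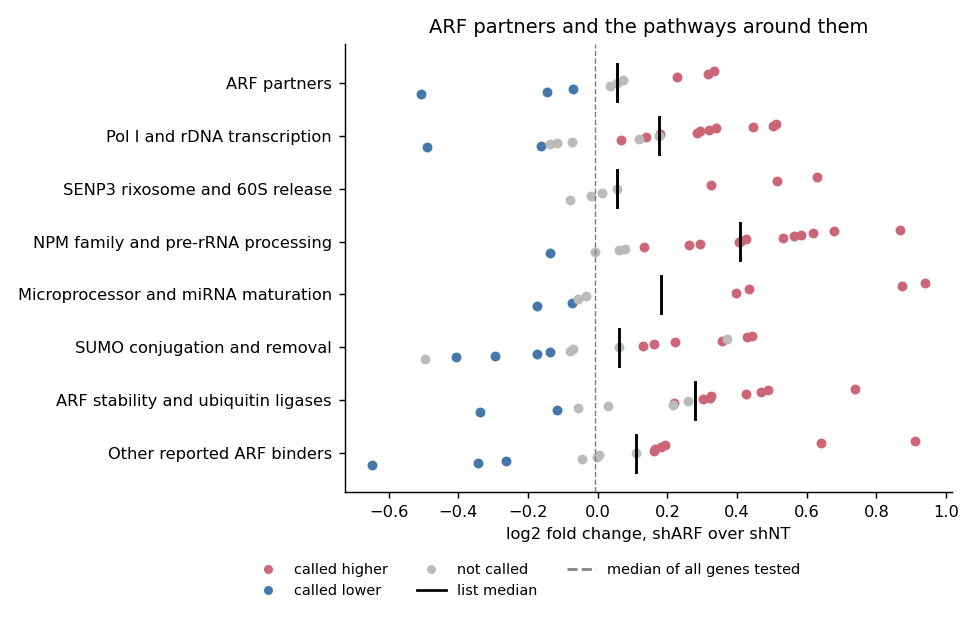
Log2 fold change (shARF over shNT, horizontal axis) of each tested gene of the 9 ARF partners and of 7 pathway lists (rows), coloured by call, with list medians (black lines) and the median of all genes tested (dashed line). The ARF partners spread from -0.51 to 0.34 around a median of 0.06, whereas the pre-rRNA processing list has a median of 0.41.

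The RNA-processing members did not pass the test. Ddx5, a DEAD-box helicase that works in rRNA and microRNA maturation, was at 483, 456 and 460 CPM in shNT and at 488, 499 and 485 CPM in shARF. The groups were apart only by the gap between 483 and 485 CPM, and the log2 fold change of 0.07 (95% confidence interval 0.01 to 0.14) had an adjusted p of 0.0559 in edgeR. Without shNT replicate 1, Ddx5 was called higher (0.10, adjusted p = 0.0141; the alternatives spanned 0.00221 to 0.665). Drosha, the nuclease that cuts primary microRNAs, was at 222, 191 and 217 CPM in shNT and at 199, 220 and 226 CPM in shARF. Each group had a low library, the groups overlapped, and the log2 fold change was 0.04 (95% confidence interval -0.13 to 0.20, adjusted p = 0.705, edgeR). The coefficient of variation of Drosha was 7.99% in shNT and 6.63% in shARF. Its counting error was at most 1.06%, if the deposited counts are numbers of reads. On that reading, its interval reflects differences between libraries more than depth.

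Of 8 other genes of the microprocessor and of microRNA maturation, 4 rose (50%) and 2 fell (25%), against 28.8% and 27.7% of all genes tested. Dgcr8, the RNA-binding partner of DROSHA, was at 55.5 ± 3.59 and 53.3 ± 4.9 CPM (log2 fold change -0.06, adjusted p = 0.576, edgeR). Ddx17, the close paralog of Ddx5, was lower by a small amount (399 ± 2.02 and 379 ± 7.55 CPM, log2 fold change -0.07, adjusted p = 0.0207, edgeR). Its call was lost when shNT replicate 2 (adjusted p = 0.0806), shARF replicate 1 (0.0814) or shARF replicate 3 (0.0799) was left out, and the alternatives spanned 4.28e-04 to 0.0814. In each of these cases 1 gene of the list was called lower. Of genes of later steps, those that rose were Dicer1, which cuts hairpin precursors, from 92.7 ± 4.32 to 169.8 ± 1.04 CPM (log2 fold change 0.87), its cofactor Tarbp2 from 24.2 ± 0.946 to 46.3 ± 1.09 CPM (0.94), the exporter Xpo5 from 166 ± 2.73 to 224 ± 3.32 CPM (0.43) and Ago2, which holds mature microRNAs, from 394 ± 7.59 to 519 ± 4.28 CPM (0.40). The other Argonaute genes in the list, named after their values were seen, were Ago1, the other gene that fell (118 ± 0.947 to 104 ± 0.549 CPM, -0.17), and Ago3 (40.3 ± 3.71 and 39.5 ± 0.478 CPM), which was not called (log2 fold change -0.03, adjusted p = 0.722, edgeR).

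The ubiquitin ligases were lower by small amounts, a direction that for Huwe1 depended on the setting. Trip12, which marks ARF for breakdown, was at 349, 348 and 327 CPM in shNT and at 306, 315 and 305 CPM in shARF. All shARF libraries were below all shNT libraries, and Trip12 in shARF was at 0.903 of its level in shNT (95% confidence interval 0.858 to 0.951, log2 fold change -0.15, SE 0.03, adjusted p = 0.00638, edgeR). Huwe1 (also ARF-BP1 or Mule), a very large ligase that ARF inhibits, was at 938, 903 and 889 CPM in shNT and at 868, 878 and 852 CPM in shARF. The groups were separated by the step from 878 to 889 CPM, with a log2 fold change of -0.07 and an SE of 0.02 (adjusted p = 0.0466, edgeR). The Huwe1 call was lost with DESeq2 (adjusted p = 0.0795), with no filter on low counts (0.074) and without shNT replicate 1 (0.0996), shNT replicate 2 (0.0933), shARF replicate 1 (0.109), shARF replicate 2 (0.0703) or shARF replicate 3 (0.147). With fold changes centred on the genes within 5 Mb, Huwe1 was called higher instead (0.20, adjusted p = 5.49e-04, edgeR), and in the other alternatives, all with a negative fold change, the adjusted p spanned 0.00222 to 0.147. Huwe1 lies on the X chromosome, where the median log2 fold change of 587 tested genes was -0.14, with 123 called higher and 230 lower, between libraries that also differ in Xist.

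Huwe1 also holds 2 microRNA genes of the let-7 family on its own strand, whose hairpins are substrates of DROSHA. Their main products are shown because both carry the same seed (bases 2 to 8, in capitals), with sequences from RefSeq (GRCm38.p6).
let-7f: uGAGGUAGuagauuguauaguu
miR-98: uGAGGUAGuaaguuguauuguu
The let-7f product lies at chrX:151912353-151912374 and the miR-98 product at chrX:151913229-151913250. The hairpin genes had 0 (Mirlet7f-2) and 8 (Mir98) counts over the 6 libraries, too few to compare.

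Of 14 other genes of ARF stability and ubiquitin ligation, 8 rose (57.1%) and 2 fell (14.3%), with a median log2 fold change of 0.28. Over all genes tested, 28.8% were called higher and 27.7% lower. Gnl3, a nucleolar GTPase reported to stabilise ARF, had a log2 fold change of 0.74, and Psme3, a proteasome activator, rose from 147 ± 2.88 to 197 ± 1.33 CPM. Mdm2, the ligase of p53 that ARF binds, was at 29.7 ± 2.76 CPM in shNT and fell to 23.5 ± 0.656 CPM in shARF (-0.34 on the log2 scale, adjusted p = 0.00689, edgeR). The other gene that fell was Stub1 (-0.12), named after its value was seen. Without shNT replicate 2, shARF replicate 2 or shARF replicate 3, 1 gene of this list was called lower. Genes of SUMO conjugation and removal went both ways, 6 of 15 higher (40%) and 4 lower (26.7%), with a median of 0.06. The SUMO proteases Senp1 (104 ± 3.65 to 141 ± 2.61 CPM), Senp2 (61.8 ± 1.18 to 79.1 ± 3.09 CPM) and Senp6 (74.2 ± 7.85 to 99.9 ± 1.49 CPM) rose and Senp7 fell (31.3 ± 0.779 to 23.6 ± 2.38 CPM). Of 13 further genes whose products are reported to bind ARF or to meet it, 6 rose (46.2%) and 3 fell (23.1%). Myc rose from 62.1 ± 2.37 to 96.8 ± 1.58 CPM and Hif1a from 228 ± 11 to 429 ± 17.8 CPM, while Bcl2l1, a survival factor, fell from 26.2 ± 1.08 to 16.7 ± 0.667 CPM and Wrn, a RecQ helicase, from 52.1 ± 1.15 to 41.1 ± 1.01 CPM. With library sizes alone as the scaling, the number of these that rose was 3.

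The levels of the members were ordered per kilobase of annotated exons, which lets genes be compared. In shNT, Npm1 had the highest level per length (229.8 CPM per kb), followed by Ddx5 (80.7), Ncl (72.4), Huwe1 (38.7), Drosha (35.3), Ubtf (29.4), Senp3 (25.9), Trip12 (20.6) and Ttf1 (3.99). No neighbours in this order overlapped over the 3 shNT libraries. In shARF, Ncl (91.4 CPM per kb) stood above Ddx5 (85.0), and Huwe1, Ubtf and Drosha (36.8, 36.6 and 36.2 CPM per kb) overlapped one another. Exons of all annotated transcripts were counted in the length, so genes with many transcript forms are understated.

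Genes near each member were compared, since median log2 fold changes differed between chromosomes, for example -0.27 on chromosome 8 and 0.27 on chromosome 12. Whether regions changed as a whole was not tested. The median log2 fold change of tested genes within 5 Mb was -0.07 around Npm1 and Ubtf, -0.09 around Ddx5, -0.15 around Senp3, -0.11 around Ttf1, 0.13 around Ncl, 0.18 around Trip12, 0.22 around Drosha and -0.27 around Huwe1. Npm1, Ubtf, Ddx5 and Senp3 all lie on chromosome 11 (Npm1 at 33152287 to 33163206, Senp3 at 69673115 to 69682084, Ubtf at 102304560 to 102319742 and Ddx5 at 106780355 to 106789185, all minus strand, GRCm38). On that chromosome 284 of 1265 tested genes were called higher and 411 lower. Ncl (86344719 to 86359400, minus strand) and Trip12 (84721189 to 84840516, minus strand) lie close together on chromosome 1 and moved in opposite directions. Ttf1 is on chromosome 2 (29060262 to 29087656, plus strand), Drosha on chromosome 15 (12824815 to 12935291, plus strand) and Huwe1 on the X chromosome (151800807 to 151935417, plus strand). When fold changes were centred on these window medians, 6 members were called higher and 2 lower. Npm1 (0.29), Ncl (0.20), Ubtf (0.39), Ttf1 (-0.40) and Trip12 (-0.33, moved from -0.15) kept their calls, Ddx5 (0.16, adjusted p = 0.00221) and Senp3 (0.21, adjusted p = 0.0141) were called higher, and Huwe1 turned from lower to higher (0.20, adjusted p = 5.49e-04), all in edgeR. Drosha was at -0.19 (adjusted p = 0.0568, edgeR).

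**Figure D3:**
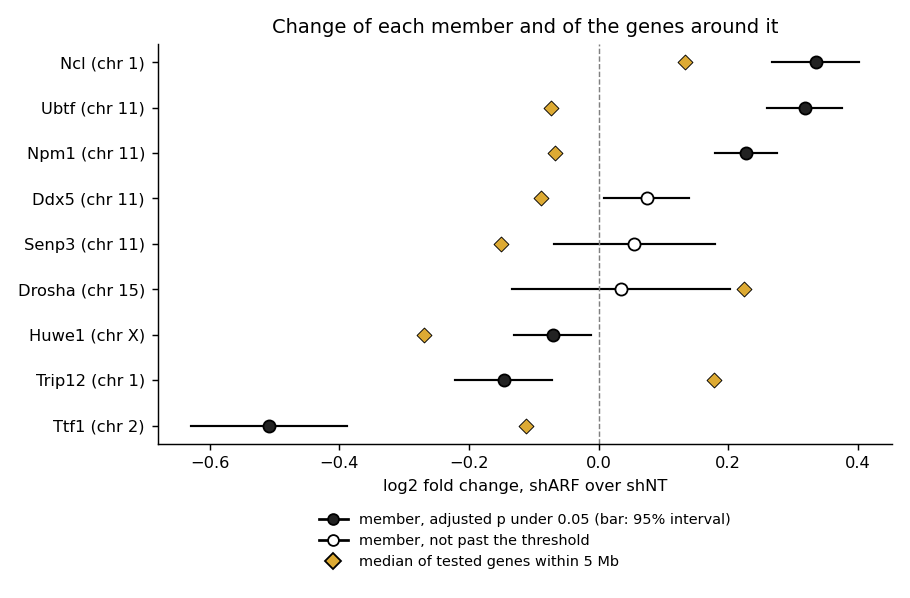
Log2 fold change (shARF over shNT) of each member with its 95% confidence interval (circles and bars, filled where called) and the median of the tested genes within 5 Mb on each side (diamonds). Npm1 and Ubtf lie above diamonds of -0.07, Trip12 (-0.15) lies below a diamond of 0.18, and Huwe1 (-0.07) lies above one of -0.27.

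Reads of near-identical sequence can pass between genes. The coding sequences of the members were searched against all annotated transcripts, keeping other genes with at least 90% identity over at least 200 bases. Npm1 had 8 such genes, all processed pseudogenes, which together held counts equal to 1.45% of those of Npm1. Their summed level was 8.7, 8.48 and 9.37 CPM in shNT and 10.1, 10.6 and 10.6 CPM in shARF, so that it too was higher in every shARF library. Ddx5 had 2 pseudogenes, and Gm12183, with 98.5% identity over 1848 bases, held counts equal to 2.0% of those of Ddx5. Senp3 had 2, Ttf1 had 1 and Ncl had 1, with counts of at most 0.29% of the parent gene. Ubtf, Huwe1, Trip12 and Drosha had 0. When these counts were added to the parent gene, Npm1 stayed at 0.23, Ddx5 at 0.07 (adjusted p = 0.0542, edgeR) and Senp3 at 0.06. Small RNA genes inside Ncl, Ddx5, Huwe1 and Drosha had at most 52 counts each over the 6 libraries. Fbxo36, which overlaps the start of Trip12 on the opposite strand, held counts equal to 1.29% of those of Trip12.

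The genes most like each member across the 6 libraries were named by Pearson correlation of log2 CPM among the 9751 genes at 10 CPM or more on average. For Npm1 they were Trak1 (0.9994) and Frk (0.9993), for Ncl Trip13 (0.9998), for Ubtf Cbfb (0.9997) and Npc2 (0.9996) and for Ttf1 Nrp2 (0.9993) and Eif2ak2 (0.9991). For Trip12 they were Gm21811 (0.9941) and Mbd2 (0.9928), for Huwe1 Bbs7 (0.9916) and Lig3 (0.9901), for Ddx5 Gde1 (0.9854) and Rbm28 (0.9834), for Drosha Stk19 (0.9913) and Snap23 (0.9868) and for Senp3 Knstrn (0.9637) and Nenf (0.9524). All points share the 2 groups, so a gene that differs between them correlates with many others: 2941 genes were above 0.9 for Npm1 and 2919 for Ncl. The numbers were lower for Trip12 (1102), Ddx5 (210), Huwe1 (192), Senp3 (21) and Drosha (17).

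Under every alternative tried, Npm1, Ncl and Ubtf were called higher and Ttf1 and Trip12 lower. Their log2 fold changes ranged from 0.14 to 0.29 for Npm1, 0.20 to 0.36 for Ncl, 0.23 to 0.39 for Ubtf, -0.60 to -0.40 for Ttf1 and -0.33 to -0.13 for Trip12. The low values for Npm1 and Ubtf came with library sizes alone as the scaling, which also gives the low end for Ttf1. That scaling moved the split of all calls from 4930 higher and 4737 lower to 4023 higher and 5874 lower, and under it Ddx5 (-0.02), Senp3 (-0.03) and Drosha (-0.05), none called, turned negative.

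**Figure D4:**
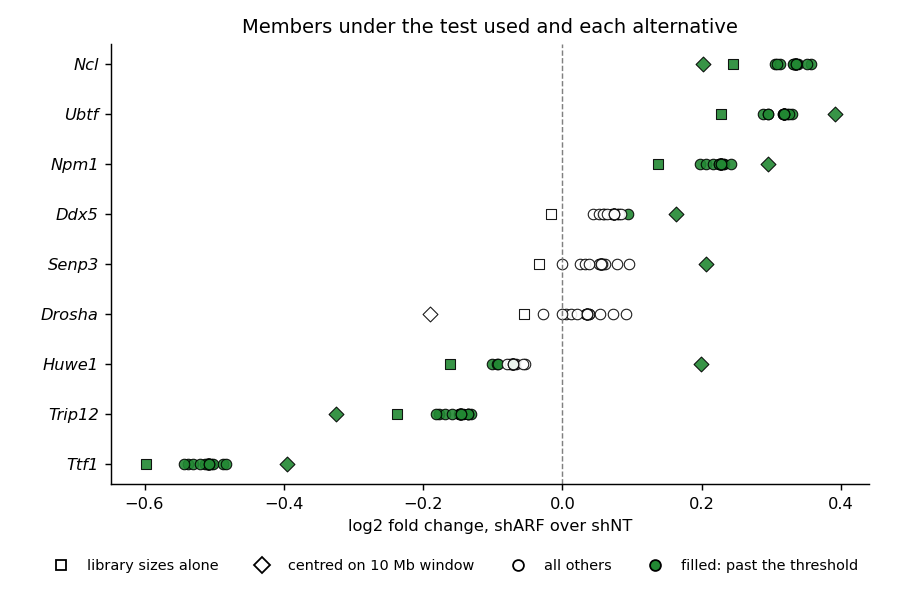
Log2 fold change (shARF over shNT) of each member under the test used and its 18 alternatives, filled where past the threshold, with squares for library sizes alone and diamonds for fold changes centred on 10 Mb windows. Npm1, Ncl, Ubtf, Trip12 and Ttf1 are filled throughout, and Huwe1 crosses 0 with the window (0.20).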

How the data were processed

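RNA-seq was made from total RNA of 6 libraries, depleted of ribosomal RNA in a kit that keeps strand, per the labels' protocols. The authors deposited whole-number counts per gene for 54752 mouse Ensembl IDs. Among tools listed in the submitters' processing notes are HISAT2 2.1.0 and StringTie 1.3.2, with Trim Galore 0.4.1, Picard 2.13.2, SAMtools 0.1.19 and DESeq2 1.34.0, on GRCm38. Their roles, the tool that made the counts, its strand setting and any duplicate removal were not given in sources used here. Unstranded counting would mix overlapping genes, and removal of duplicates would understate the most abundant transcripts. The table has 6 further columns of no sample here, which were not used. Columns were matched to samples on group and replicate, since the index number in the shARF columns differs from the titles.

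Symbols, coordinates and exon lengths came from GENCODE M21 (GRCm38), which matched 54723 IDs. The test was edgeR 4.0.16 in R 4.3.3 (glmQLFit, glmQLFTest) on the deposited counts, with group as the sole term, TMM, filterByExpr defaults (minimum count 10, total 15), a prior count of 0.125 and two-sided p-values, adjusted by Benjamini-Hochberg over all 17128 genes tested (threshold 0.05). Means carry the SD over 3 libraries. Correlations used log2 of CPM plus 0.5. Near-identical genes were found with blastn 2.17.0 on the longest open reading frame. Depth was 40.3 to 47.0 M counts per library. A simulated table of 16783 genes, some given a known change, was also run through the pipeline. It recovered 2.04% of 49 genes changed 1.25-fold and 41.7% of 48 changed 1.5-fold. At 2-fold it recovered 71.4% of 49 genes, and at 4-fold 93.9% of 49. Small changes were thus mostly missed in the simulation. Its mean levels, depths and spread were set from estimates of these libraries, but whether the drawn spread matches theirs was not tested. The changed genes were few and of any level, whereas 9667 of 17128 genes were called in the data. These shares therefore do not carry over to the members, of which Ubtf was called at 1.25-fold.

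Alternatives were DESeq2 1.42.0, limma-voom (limma 3.58.1), RLE, upper quartile and no scaling factors, other filters, a replicate block, structural RNAs left out, fold changes centred on the median of tested genes within 5 Mb (at least 15 genes), a threshold of 0.01, each library left out and, added after seeing the data, pseudogene counts added to the parent gene. The members, gene lists and alternatives were chosen with earlier results of these data known. Genes named were the members, Cdkn2a, the 4 of each of 7 pathway lists with the smallest p, and Npm3, Dgcr8, Ddx17, Pelp1, Mdm2 and Myc; some genes that the rules name are not reported here. No set test was run.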

Additional observations from a re-analysis of the deposited data

How the results depend on the processing

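Of 162 values of the 9 members under the 18 alternatives, 149 kept their direction or lack of a call, 9 lost a call, 3 gained one and 1 reversed, and all 10 losses and reversals were of Huwe1. Huwe1 reversed with fold changes centred on 10 Mb windows (0.20, adjusted p = 5.49e-04 in edgeR), where 6 members were called higher. Its call was also lost at a threshold of 0.01 (adjusted p = 0.0466 in edgeR). Leaving out 1 library gave between 5 and 6 members called and between 8783 and 9178 genes over all. The share of all genes called ran from 33.7% with no filter to 68.2% with at least 5 CPM in 3 libraries, where the genes tested differ. Same-numbered libraries did not deviate together (Pearson r between -0.13 and -0.03 over genes), so the numbers were not taken as pairs. With a replicate block 8913 genes and 5 members were called, Huwe1 (-0.07, adjusted p = 0.0571 in edgeR) dropping out. The lowest count of a member was 718, for Ttf1 in shARF replicate 2. Its counting error there (3.73%) was above its spread between the shARF libraries (2.79%). Depth may thus limit its precision in shARF, if the deposited counts are numbers of reads. In shNT its counts were higher (948 to 1202) and its spread was 3.72%. With 3 libraries a group the intervals of Drosha and Senp3 allow changes of up to 1.15-fold and 1.13-fold.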
